A study of Mus musculus with 6 samples.

Results

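The genes described here encode the subunits of RNA polymerases I, II and III in D10 cells, a cloned mouse helper T cell line. They were chosen as the protein-coding rows of the deposited expression table whose symbol starts with Polr1, Polr2 or Polr3, which gave 32 of 41079 listed genes. Of these, 31 encode polymerase subunits or, for Polr2m, a protein named with them. The remaining one, Polr1has, is an antisense transcript gene beside Polr1h that shares the prefix and is not a subunit gene, so it is described apart. Cells were kept for 24 h at 37°C (non-acclimated T cells, 3 replicates) or for 24 h at 26°C (cold-acclimated T cells, 3 replicates), with no other treatment, and the comparison asks how a day in the cold changed their transcripts. All 6 libraries come from 1 clone, so the spread is that between cultures or RNA extractions of a single line. The labels speak of older and newer extraction batches without naming the libraries of each.

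Levels are given in TPM, a measure of transcript abundance that divides a gene's reads by its length and gives all libraries an equal sum. Read numbers were recovered from the table and added up to between 16899628 and 31290854 per library. RNA was selected by its poly(A) tail, so the values are levels of the subunits' messenger RNAs, and neither the proteins nor the ribosomal and transfer RNAs that Pol I and Pol III make were measured. Of 12 T cell markers, 11 had a mean of at least 1 TPM, with a summed level of 3610 to 4840 TPM in non-acclimated and 4480 to 5100 TPM in cold-acclimated libraries. B cell markers reached this mean in 0 of 8 cases and were summed at 0.396 to 1.11 TPM and 0.125 to 1.08 TPM, with Ms4a1 at 0. Macrophage markers reached it in 2 of 8 cases and were summed at 2.87 to 16.0 TPM and 2.90 to 21.5 TPM, with Cd14 at 0. Among 7 erythroid markers only the globin gene Hba-a1 reached it, the list was summed at 80.9 to 487 TPM and 61.4 to 475 TPM, and Hbb-bs and Hbb-bt were at 0. The ranges of the 4 marker lists overlapped between the conditions, and their part in the subunit values was not tested.

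RNA polymerase I transcribes the large ribosomal RNA precursor, polymerase II transcribes messenger RNAs and many small nuclear RNAs, and polymerase III transcribes transfer RNAs, 5S ribosomal RNA and other short RNAs. Each enzyme is built around its own pair of large catalytic subunits, which form the active centre, and carries a stalk that contacts initiation factors and the emerging RNA. Pol I and Pol III share a pair of assembly subunits, all 3 enzymes share a set of small subunits, and Pol III has extra subunits that act in initiation and termination. In T cells, the demand on these enzymes changes with activation and growth.

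Polr2a, which encodes the largest catalytic subunit of Pol II with its C-terminal repeat domain, showed the largest fall among the subunit genes. Its promoter sequence is printed because the measured change was largest there, and the gap beside Polr1h because the pair of genes that start at its ends differed in response. The sequences come from the RefSeq promoter table, whose windows hold 250 bases before and 50 after a gene's start on GRCm38.p6, and were located by an exact match in GRCm39. In the Polr2a sequence, the 250 bases before the RefSeq start at chr11:69649460-69649709 on the minus strand, capitals mark GC boxes (GGGCGG) and a TATA box (TATAAA).
Polr2a: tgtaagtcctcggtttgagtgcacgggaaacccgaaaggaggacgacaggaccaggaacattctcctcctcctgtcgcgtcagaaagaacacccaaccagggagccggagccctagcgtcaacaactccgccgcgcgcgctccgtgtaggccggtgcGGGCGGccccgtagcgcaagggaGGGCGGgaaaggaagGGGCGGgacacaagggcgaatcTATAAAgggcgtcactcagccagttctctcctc
Polr1h to Polr1has: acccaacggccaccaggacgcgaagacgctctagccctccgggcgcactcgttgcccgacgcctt
The second line shows the 65 bases at chr17:37269418-37269482, read on the minus strand, between the start of Polr1h and that of Polr1has on the opposite strand.

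The GC boxes of Polr2a begin 93, 70 and 55 bases before its start, and the TATA box begins 33 bases before it. Promoter windows of 300 bases, matched by gene identifier, were used for 26 of the 32 genes, 30 windows in all. The subunit windows leave out chromosome 18, where Polr2d lies, and the set of all windows was not filtered in this way. The TATA box letters stood in 2 of these 30 windows, those of Polr2a and Polr2c, which is 6.67% against 13.6% of all 32851 windows. Both strands were searched for 6 motifs in all. The GC box stood in 50.0% of the subunit windows and 35.7% of all, the E-box CACGTG in 16.7% and 7.15%, and the ETS motif CCGGAAG in 26.7% and 8.86%. GCATGCGC, part of the NRF1 motif, stood in 6.67% and 2.71%, and the YY1 motif AAGATGG in 0% and 6.34%. The median GC content of the subunit windows was 59.2%, against 52.7% over all windows. None of the 4 marked sites in the Polr2a sequence overlaps another, and the 65-base gap beside Polr1h holds none of the 6 motifs. These matches describe letters only, and no binding was measured.

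Expression was compared with limma on log2(TPM + 1), and a gene was called when its Benjamini-Hochberg adjusted p was under 0.05 and its log2 fold change at least 1 in size. All 32 genes passed the filter of a mean of at least 1 TPM. Polr3f and Polr3g were upregulated and Polr2a and Polr1has were downregulated. The 2 upregulated genes stand against 2.63% of the 12227 tested genes called upregulated, and the 2 downregulated genes against 16.0% called downregulated. Over the whole tested set the median log2 fold change was -0.34 on this scale, so the changes are also given relative to that median. When the libraries were rescaled by the median of ratios, which moved the median of all genes to 0.03, 6.87% of genes were upregulated and 8.60% downregulated. On that scale 4 of the 32 genes were upregulated, with Polr1f and Polr2d added, and Polr2a and Polr1has were downregulated.

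**Figure D1:**
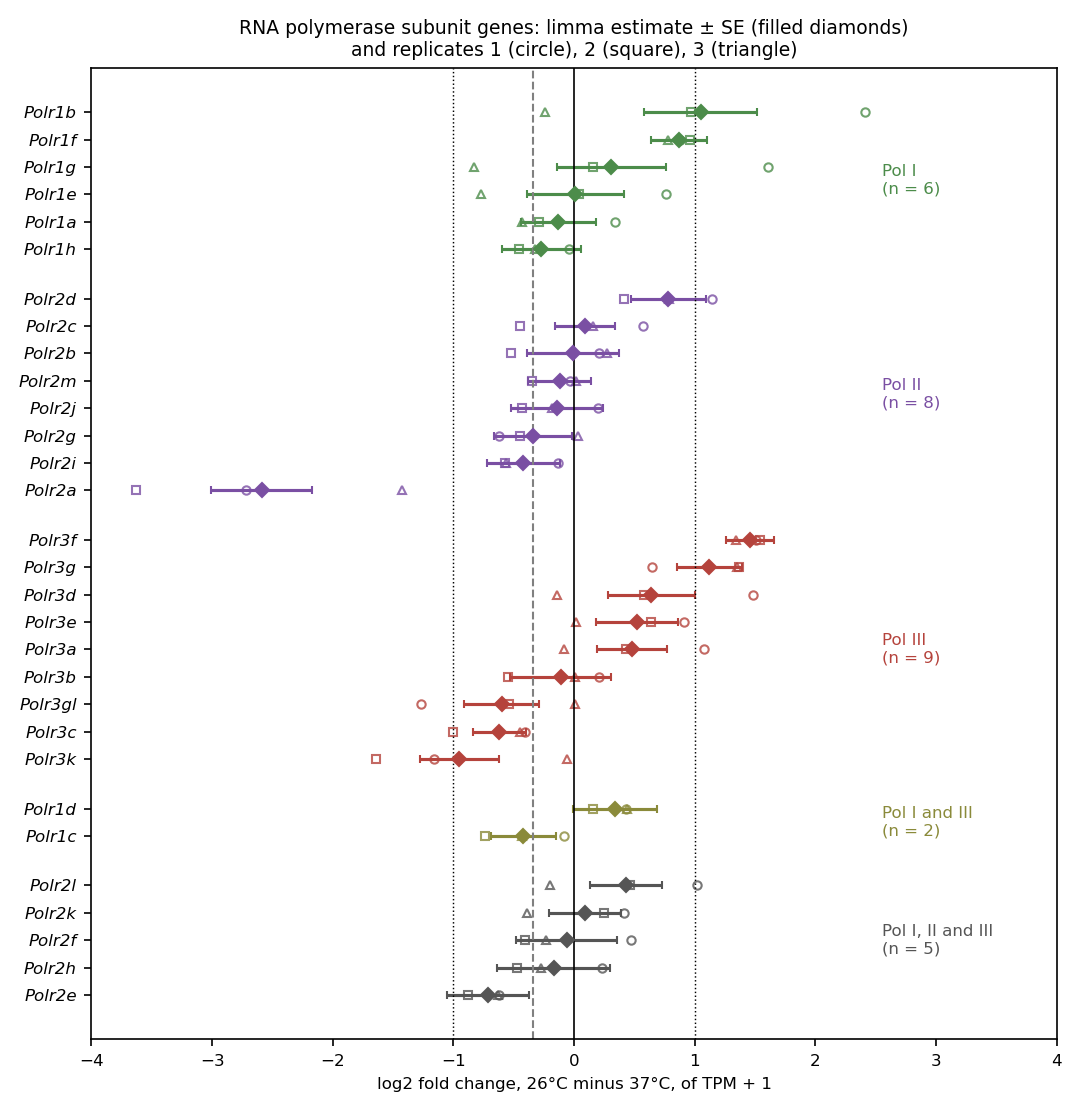
Log2 fold change (x axis, 26°C minus 37°C, of TPM + 1) of 30 subunit genes (rows, grouped by enzyme), with filled diamonds and bars for the limma estimate ± SE and open symbols for each replicate pair; the dashed line marks the median of all tested genes at -0.34 and the dotted lines the fold threshold of 1 in each direction. Polr2a lies far to the left at -2.59, Polr3f and Polr3g lie right of the threshold at 1.46 and 1.12, and most other genes spread around 0.

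The catalytic subunits of the 3 enzymes did not move together. Polr2a was measured at 160, 198 and 134 TPM at 37°C and at 23.4, 15.1 and 49.3 TPM at 26°C. Every cold-acclimated value lay well under every non-acclimated value, and replicate 3 showed the smallest difference. Its mean was 164 ± 31.9 TPM (SD, n = 3) at 37°C and 29.3 ± 17.8 TPM (SD, n = 3) at 26°C, a 5.60-fold lower level in the cold. The log2 fold change was -2.59 (SE 0.42, limma adjusted p = 0.0097), or -2.25 relative to the median of all genes, and by replicate it was -2.72, -3.63 and -1.43. Without non-acclimated replicate 2 the log2 fold change was -2.45 and the adjusted p rounded to 0.050, just past the threshold, so the call was lost. The gene lies at chr11:69624823-69649459 on the minus strand of GRCm39. In bulk RNA, fewer cells that express a gene and less of its RNA per cell cannot be told apart.

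Polr2b, the second largest subunit, which pairs with the Polr2a product in the active centre, stood at 106, 148 and 199 TPM at 37°C. In the cold it stood at 122, 103 and 240 TPM, and the conditions overlapped. Its log2 fold change was -0.01 (SE 0.38, limma adjusted p = 0.98), so no difference from 0 was detected for this partner of Polr2a. The TPM ratio of Polr2a to Polr2b within a library was 1.51, 1.34 and 0.674 at 37°C and 0.191, 0.147 and 0.205 at 26°C. This ratio and the others below were chosen after the values were seen and carry no test. Among the 31 subunit genes ordered by TPM, Polr2a held places 3, 5 and 9 at 37°C and places 26, 27 and 16 in the cold.

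For Pol I, Polr1a, the largest subunit, was at 87.3, 127 and 183 TPM at 37°C and at 110, 104 and 136 TPM at 26°C. These values overlapped, and the log2 fold change was -0.13 (SE 0.31, limma adjusted p = 0.80). Polr1b, the second largest subunit of Pol I, was at 15.0, 36.1 and 50.3 TPM at 37°C and at 84.1, 71.4 and 42.5 TPM at 26°C. It was higher in the cold in replicates 1 and 2 and slightly lower in replicate 3, and the conditions overlapped. Its log2 fold change of 1.05 (SE 0.47) did not pass the test (limma adjusted p = 0.14). Without replicate 3 it was 1.69 with an adjusted p of 0.025. It was 0.36 (adjusted p = 0.64) without replicate 1 and 1.09 (adjusted p = 0.42) without replicate 2. The ratio of Polr1a to Polr1b was 5.83, 3.53 and 3.65 in non-acclimated and 1.31, 1.45 and 3.21 in cold-acclimated libraries, without overlap.

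For Pol III, Polr3a, the largest subunit, was at 18.8, 19.2 and 30.7 TPM at 37°C and at 40.8, 26.2 and 29.0 TPM at 26°C. Polr3b, the second largest, was at 10.4, 20.8 and 26.5 TPM and then at 12.2, 13.9 and 26.6 TPM. Both overlapped between the conditions, with log2 fold changes of 0.48 (SE 0.29, limma adjusted p = 0.28) for Polr3a and -0.11 (SE 0.42, adjusted p = 0.88) for Polr3b. The ratio of Polr3a to Polr3b also overlapped, at 1.81, 0.923 and 1.16 against 3.34, 1.88 and 1.09. Of the 6 catalytic genes, then, Polr2a alone was called, where 16.0% of all tested genes were downregulated and 2.63% upregulated.

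**Figure D2:**
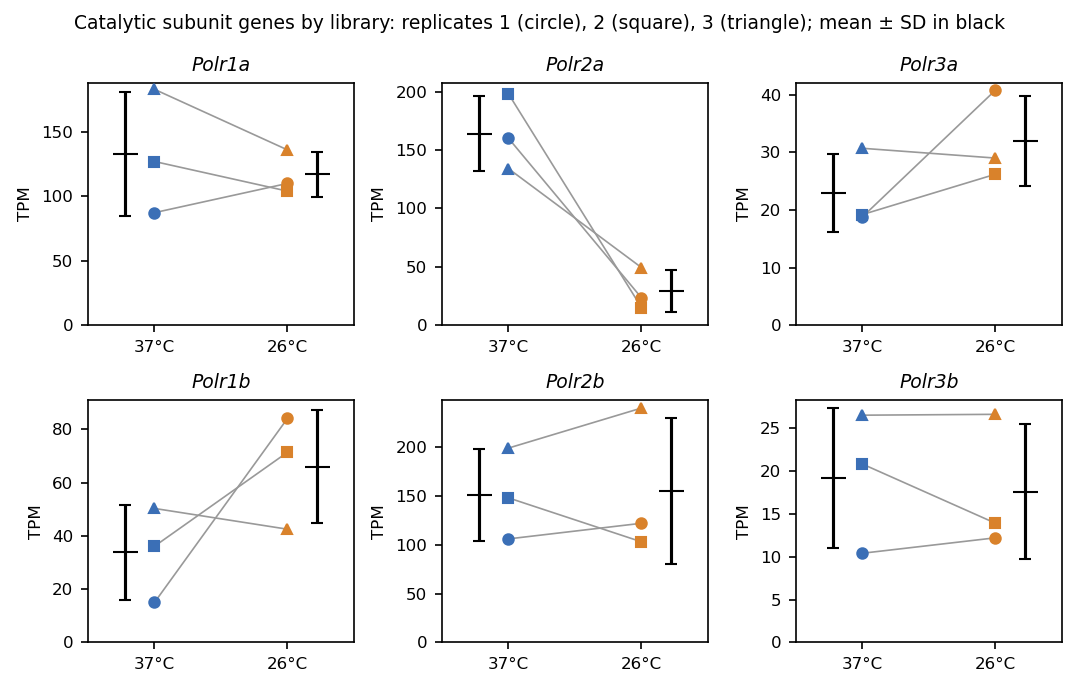
TPM (y axis, from 0, one scale per panel) of the largest (upper row) and second largest (lower row) catalytic subunit genes of Pol I, II and III at 37°C and 26°C; symbols are libraries, grey lines join the same replicate number and black bars give the mean ± SD of 3 libraries. Polr2a fell from 134 to 198 TPM down to 15.1 to 49.3 TPM, while the other 5 genes overlap between the conditions.

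The initiation subcomplex of Pol III, a group of 3 subunits that opens the promoter with the factor TFIIIB, held both upregulated subunit genes. Polr3f, its RPC39-type subunit, was measured at 18.8, 18.1 and 19.2 TPM at 37°C and at 55.2, 54.4 and 50.1 TPM at 26°C. The replicates lay close together within each condition and far apart between them. The mean rose from 18.7 ± 0.561 to 53.2 ± 2.72 TPM (SD, n = 3), 2.85-fold, with a log2 fold change of 1.46 (SE 0.20, limma adjusted p = 0.0075) and values of 1.51, 1.54 and 1.34 by replicate. Its log2 fold change was 1.80 above the median of all genes, and the call held when any 1 library was left out (adjusted p between 0.0044 and 0.046). Polr3f lies at chr2:144369665-144383699 on the plus strand.

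Polr3g encodes RPC32-alpha, one of 2 alternative forms of a subunit of the same subcomplex, and is known for its expression in stem cells and proliferating cells. It was at 13.9, 8.95 and 12.1 TPM at 37°C and at 22.4, 24.7 and 32.6 TPM at 26°C, without overlap. The mean rose from 11.7 ± 2.52 to 26.6 ± 5.33 TPM (SD, n = 3), 2.28-fold, with a log2 fold change of 1.12 (SE 0.27, limma adjusted p = 0.028). This call was less firm than that of Polr3f. It was lost when any 1 of 5 libraries was left out, all but non-acclimated replicate 3, with log2 fold changes of 0.96 to 1.25 and adjusted p of 0.038 to 0.11. Polr3g lies at chr13:81821956-81859132 on the minus strand.

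Polr3gl encodes RPC32-beta, the other form, which is widely expressed in differentiated tissues. It was at 7.27, 6.10 and 4.18 TPM at 37°C and at 2.42, 3.88 and 4.20 TPM at 26°C. The conditions overlapped, replicate 3 showed almost no difference, and the log2 fold change of -0.60 (SE 0.31) did not pass the test (limma adjusted p = 0.20). The ratio of Polr3g to Polr3gl was 1.91, 1.47 and 2.90 at 37°C and 9.28, 6.36 and 7.76 at 26°C, without overlap. The length behind the Polr3gl values is 13242 bases, the longest among these genes, against 3060 for Polr3g, and this lowers the level of Polr3gl relative to Polr3g in every library alike.

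Polr3c, the RPC62-type remaining member of the subcomplex, was at 91.3, 96.8 and 86.6 TPM at 37°C and at 68.4, 48.0 and 63.2 TPM at 26°C. All cold-acclimated values lay under the non-acclimated ones, yet the log2 fold change of -0.62 (SE 0.22) did not pass the test (limma adjusted p = 0.087). It was -0.28 relative to the median of all genes, and -0.21 with an adjusted p of 0.51 after median of ratios scaling. The ratio of Polr3f to Polr3c within a library was 0.206, 0.187 and 0.221 at 37°C and 0.807, 1.13 and 0.794 at 26°C. A small nucleolar RNA gene, Gm22581, lies within Polr3c on the same strand, overlapping it by 136 bases. Gm22581 went from a mean of 1.38 to 7.80 TPM, a log2 fold change of 2.07 (limma adjusted p = 0.033), opposite in direction to Polr3c. Over so few bases these levels rest on few reads, so the call is not firm. The part of Gm22581 in the Polr3c values was not tested.

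**Figure D3:**
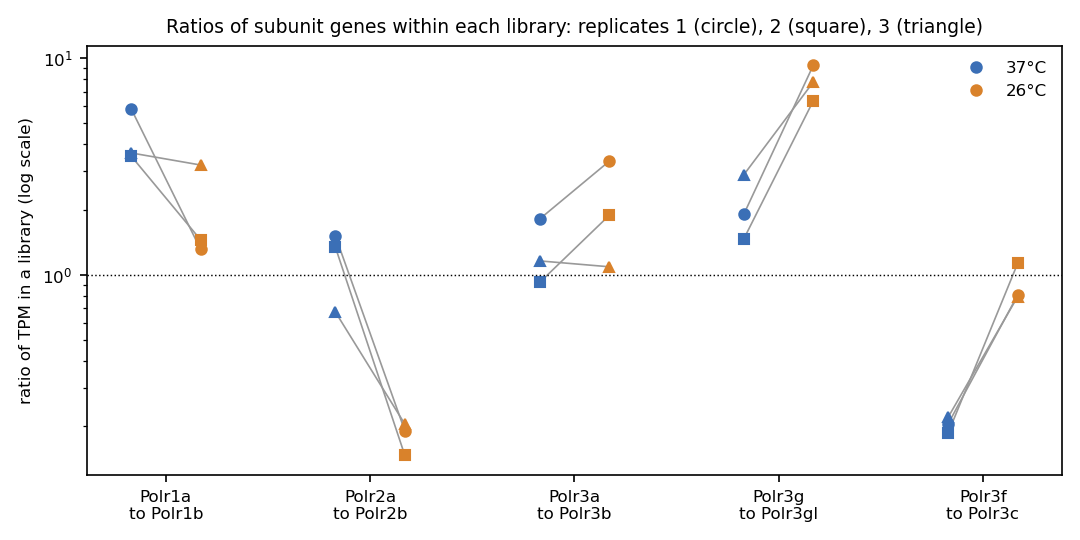
Ratio of the TPM of paired subunit genes within each library (y axis, log scale) at 37°C and 26°C, with grey lines joining the same replicate number. Polr1a to Polr1b and Polr2a to Polr2b drop in the cold, and Polr3g to Polr3gl and Polr3f to Polr3c climb. Each of these ratios is without overlap, while Polr3a to Polr3b overlaps.

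Polr3k encodes the RPC10-type subunit that acts in transcript cleavage and termination by Pol III. It was at 62.0, 69.5 and 50.3 TPM at 37°C and at 27.1, 21.7 and 48.1 TPM at 26°C. The values did not overlap, but those of replicate 3 nearly met. The log2 fold change was -0.95 (SE 0.33, limma adjusted p = 0.075), and -0.55 with an adjusted p of 0.21 after median of ratios scaling. The gene was called without cold-acclimated replicate 3, at -1.27 with an adjusted p of 0.012. Leaving out any other single library gave an adjusted p of 0.086 to 0.22. Polr3d and Polr3e, of the RPC53 and RPC5 types, had log2 fold changes of 0.64 and 0.52 and overlapped between the conditions (adjusted p of 0.24 and 0.30).

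In Pol I, the A43-type stalk gene Polr1f was at 29.1, 35.0 and 38.3 TPM at 37°C and at 54.5, 68.8 and 66.2 TPM at 26°C. Each cold-acclimated value exceeded each non-acclimated value. The log2 fold change of 0.87 (SE 0.23, limma adjusted p = 0.035) passed on p and missed the fold threshold. The adjusted p was 0.082 to 0.12 without any 1 of 4 libraries, replicate 1 or 2 of either condition. After median of ratios scaling it was 1.28 with an adjusted p of 0.014. Polr1e and Polr1g, which encode the A49- and A34-type pair that assists initiation and elongation, had log2 fold changes of 0.01 and 0.31, and the cleavage subunit gene Polr1h had -0.27. None of these 3 passed the test (adjusted p of 0.99, 0.66 and 0.58). By replicate, Polr1g ran from 1.61 in replicate 1 to 0.16 in replicate 2 and -0.83 in replicate 3, and its spread was wide.

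In Pol II, the stalk is formed by RPB4 and RPB7. Polr2d, which encodes RPB4, was at 57.4, 82.1 and 107 TPM at 37°C and at 128, 109 and 185 TPM at 26°C, without overlap. The lowest cold-acclimated value lay just above the highest non-acclimated one. Its log2 fold change was 0.78 (SE 0.31, limma adjusted p = 0.11), and 1.19 with an adjusted p of 0.030 after median of ratios scaling. With the replicate block the change of 0.78 had an adjusted p of 0.033 and stayed under the fold threshold. Polr2g, which encodes its partner RPB7, had a log2 fold change of -0.34 (adjusted p = 0.48) with overlapping values. The assembly subunits Polr2c (RPB3) and Polr2j (RPB11), Polr2i (RPB9) and Polr2m had log2 fold changes of 0.09, -0.14, -0.42 and -0.12, with adjusted p of 0.82, 0.83, 0.35 and 0.77. Polr2m encodes Gdown1, which binds Pol II and is not a core subunit.

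Of the subunits shared between enzymes, 0 of 7 were called by limma, where 2.63% of all tested genes were upregulated and 16.0% downregulated. At an unadjusted p under 0.05 there were 0 of the 7, against 948 higher and 3664 lower among the 12227 tested genes. Voom on the recovered reads called 0 of the 7, against 792 upregulated and 1092 downregulated genes. The fit with the replicate as a block called 0 of the 7, against 458 and 2679. These counts of 0 were not tested against the shares over all genes. Polr2e, which encodes RPB5, was at 140, 229 and 269 TPM at 37°C and at 90.8, 124 and 174 TPM at 26°C. It was lower in the cold in every replicate, with overlap between the conditions, and had a log2 fold change of -0.71 (SE 0.34, limma adjusted p = 0.17). With the replicate block its SE was 0.19 and its adjusted p 0.027, under the fold threshold, and with the block and median of ratios scaling the change was -0.30 (adjusted p = 0.20). Polr1c and Polr1d, the assembly pair of Pol I and Pol III, had log2 fold changes of -0.42 and 0.34 (adjusted p of 0.29 and 0.52), and Polr1d had 0.76 (adjusted p = 0.022) with the block and median of ratios scaling, also under the fold threshold. The values of Polr1c did not overlap but nearly met, with 133 to 216 TPM at 37°C and 99.0 to 132 TPM at 26°C. Polr2f, Polr2h, Polr2k and Polr2l had log2 fold changes of -0.06, -0.17, 0.09 and 0.43, with adjusted p between 0.34 and 0.94. Polr2k rested on only 23 to 42 reads per library and overlaps Spag1 on the same strand, the fewest reads of the 31 genes.

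**Figure D4:**
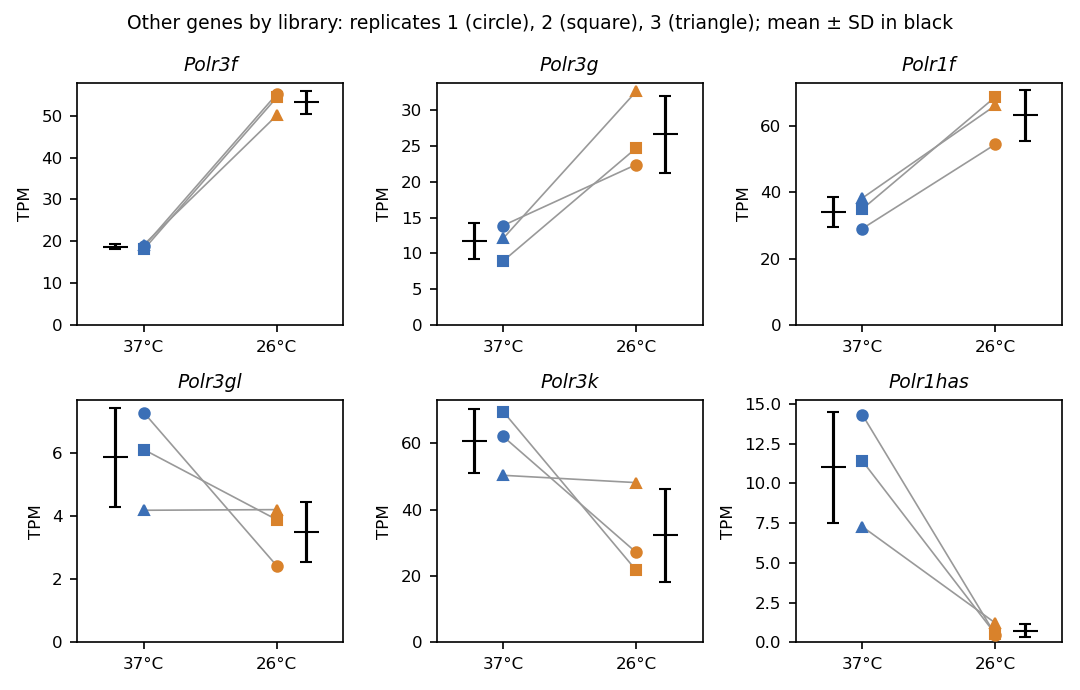
TPM (y axis, from 0, one scale per panel) of Polr3f, Polr3g, Polr1f, Polr3gl, Polr3k and the antisense gene Polr1has at 37°C and 26°C; symbols are libraries, grey lines join the same replicate number and black bars give the mean ± SD of 3 libraries. Polr3f, Polr3g and Polr1f sit higher in every cold-acclimated library, Polr1has and Polr3k lower, and Polr3gl overlaps.

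Summarised by enzyme, the 10 genes of Pol III had a median log2 fold change of 0.41, which is 0.74 above the median of all tested genes. The median was 0.16 for the 6 Pol I genes, 0.50 above all genes, -0.13 for the 8 Pol II genes, 0.21 above, and -0.06 for the 7 shared genes, 0.28 above. These medians were not tested, and they varied by replicate and with single libraries. Leaving out 1 library gave relative medians of 0.51 to 0.89 for Pol III, 0.23 to 0.92 for Pol I, 0.00 to 0.39 for Pol II and 0.09 to 0.57 for the shared genes. The lowest values came without non-acclimated replicate 1, or for Pol II without cold-acclimated replicate 3, and the highest without non-acclimated replicate 3, where Pol I stood above Pol III. Relative to all genes, the Pol III median was 1.11, 0.75 and 0.21 in replicates 1, 2 and 3, and that of Pol I was 1.15, 0.54 and -0.13. That of Pol II was 0.41, -0.01 and 0.27, and its sign turned, to -0.06 over all replicates, when genes of low level were kept. That of the shared genes was 0.73, 0.03 and -0.03, so every one of the 4 groups was highest in replicate 1. Of the 31 subunit genes, 23 lay above the median of all genes and 8 below. By sign, 6 were higher in the cold in every replicate, 7 lower in every replicate and 18 of mixed direction, and 21, 14 and 12 genes were higher in replicates 1, 2 and 3.

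The conditions did not overlap for 8 of the 31 subunit genes. Higher in every cold-acclimated library were Polr1f, Polr2d, Polr3f and Polr3g, 4 genes, where 9.69% of all tested genes were higher without overlap. Lower were Polr2a, Polr1c, Polr3c and Polr3k, 4 genes, where 31.4% of all tested genes were lower without overlap. The count of lower genes was thus no larger than the share over all genes, and Polr2a stands out by size rather than by the number of genes beside it.

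Polr1has starts 66 bases from Polr1h on the opposite strand, across the gap printed above. It was at 14.3, 11.4 and 7.27 TPM at 37°C and at 0.476, 0.515 and 1.21 TPM at 26°C, from 190, 182 and 170 reads and then from 8, 9 and 24. The conditions lay far apart, with a log2 fold change of -2.77 (SE 0.34, limma adjusted p = 0.0070). Polr1h itself was at 125, 96.8 and 76.4 TPM and then at 122, 70.1 and 60.9 TPM, so the neighbours that share this start region differed in response. The ratio of Polr1h to Polr1has was 8.78, 8.49 and 10.5 at 37°C and 256, 136 and 50.4 at 26°C. The libraries were strand-specific, but the strand setting of the counting is not given, and both transcripts run away from the gap and do not overlap.

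A gene that starts head to head within 1000 bases was found for 17 of the 31 subunit genes, and 15 of these neighbours were tested. Of these, 0 were upregulated by limma (1 was higher at an unadjusted p under 0.05, and voom called 0), against 2.63% of all tested genes, and 3 of 15 were downregulated, near the 16.0% of all tested genes, Polr1has, Ppp1r13l beside Polr1g and Mblac2 beside Polr3g. Mblac2 starts 404 bases from Polr3g and went from a mean of 4.19 to 0.180 TPM, with a log2 fold change of -2.13 (adjusted p = 0.0074), while Polr3g rose. Polr3f has Dzank1 at 238 bases, which was near 0 at 0.133 and 0.164 TPM. An overlapping neighbour on the opposite strand was found for 8 subunit genes, and reads there can be told apart only if strand was used in counting.

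The factors that work with the polymerases were followed as lists written from general knowledge, given by counts and medians beside the 2.63% upregulated and 16.0% downregulated among all genes. Counts after median of ratios scaling stand beside 6.87% upregulated and 8.60% downregulated. Of the 12227 tested genes, voom called 792 upregulated and 1092 downregulated. At an unadjusted p under 0.05 in the limma fit, 948 were higher and 3664 lower. Of 8 Pol I initiation factors, 1 was upregulated and 1 downregulated, with a median 0.19 above that of all genes. The upregulated one, Taf1d, a subunit of the promoter factor SL1, went from 53.3 ± 0.868 to 113 ± 22.9 TPM (SD, n = 3), with a log2 fold change of 1.04 (SE 0.23, limma adjusted p = 0.021). The downregulated one, Ttf1, which binds the ribosomal gene terminators, went from a mean of 31.0 ± 5.31 TPM to 5.33 ± 1.66 TPM, and its log2 fold change was -2.35 (SE 0.29, adjusted p = 0.0070).

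Of 31 general factors of Pol II, 0 were upregulated by limma (2 were higher at an unadjusted p under 0.05, and voom called 4) and 5 were downregulated, Gtf2a1, Gtf2h4, Taf1, Taf2 and Taf6, with a list median 0.11 above that of all genes. Gtf2a1, the large subunit of TFIIA, had the smallest p among them and went from 17.4 ± 1.20 to 7.09 ± 1.26 TPM (SD, n = 3), with a log2 fold change of -1.19 (SE 0.25, adjusted p = 0.018). After median of ratios scaling 3 general factors were upregulated and 2 downregulated, and Gtf2a1 was no longer called. On that scale 6.87% of all tested genes were upregulated and 8.60% downregulated. Of 27 pausing and elongation factors, 1 was upregulated and 4 were downregulated, with a median 0.08 above that of all genes, or 3 and 2 after median of ratios scaling. Ell, an elongation factor, went from 38.5 ± 5.26 to 80.1 ± 3.21 TPM, with a log2 fold change of 1.05 (SE 0.21, limma adjusted p = 0.018). Rprd1a, which binds the C-terminal domain that Polr2a encodes, went from 18.3 ± 2.63 to 3.74 ± 0.560 TPM, with a log2 fold change of -2.02 (SE 0.25, adjusted p = 0.0070), and Ssrp1, Ctr9 and Ssu72 were also downregulated.

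Of 18 initiation and control factors of Pol III, 0 were upregulated by limma (2 were higher at an unadjusted p under 0.05, and voom called 2) and 1 was downregulated, with a median 0.05 above that of all genes. That gene, Gtf3c1, the largest subunit of TFIIIC, went from 75.3 ± 17.6 to 34.4 ± 4.96 TPM (SD, n = 3), with a log2 fold change of -1.09 (SE 0.25, adjusted p = 0.025). It was not called after median of ratios scaling. On that scale 2 of these factors were upregulated and 0 downregulated, against 6.87% and 8.60% of all tested genes. Of 17 tested factors of polymerase assembly and nuclear import, Slc7a6os, the homologue of a yeast Pol II import factor, was upregulated at 1.30 (SE 0.26, limma adjusted p = 0.016). The chaperone ATPases Ruvbl2, at -1.05 (SE 0.28, adjusted p = 0.037), and Ruvbl1 were downregulated, and neither was called after median of ratios scaling, which gave 2 upregulated and 0 downregulated genes. The median of this list was 0.24 above that of all genes. Of 4 further genes, Crcp, a Pol III stalk subunit whose symbol lacks the prefix, the mitochondrial RNA polymerase gene Polrmt and the mitochondrial transcription factor genes Tfam and Tfb2m, 0 were called by limma in either direction, with 1 lower at an unadjusted p under 0.05 and 0 called by voom. The calls of the list genes named with their values, other than Ttf1 and Rprd1a, were lost without 1 of 4 or more of the libraries.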

How the data were processed

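Poly(A)+ RNA of D10 T cells was sequenced in 6 strand-specific libraries, 3 per condition. Per the submitters' processing notes and the paper's methods, the authors trimmed reads with Trimmomatic 0.38, checked them with FastQC 0.11.7, aligned them to GRCm39 with HISAT2 2.1.0 and counted them with featureCounts 1.6.3. The deposited values are TPM. The values of 1 subunit gene are not reported here, though group counts and medians include it. For the annotation release, the strand setting and reads that map to several places, no statement is given in the sources used here.

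Read numbers were computed as whole multiples of the smallest unit shared by a gene's 6 values, and 100% of 21195 genes came out whole within 1e-06 reads. limma 3.58.1 in R 4.3.3 was fitted with a mean-variance trend to log2(TPM + 1) of the 12227 genes with a mean of at least 1 TPM. The pseudocount of 1 understates changes of low genes. A call needed an adjusted p (Benjamini-Hochberg) below 0.05 together with a size of 1 or more on the log2 scale. Other values were computed with Python 3.11.15. The fit was tested on simulated libraries with changes of equal size in both directions. No replicate effect and no shift common to all genes were built in, so that test cannot show how the fit behaves with either.

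Libraries with the same replicate number deviated together from their condition's mean. The correlations across genes were 0.48, 0.50 and 0.51, against -0.41 to 0.02 for different numbers. The replicate number was taken to pair the libraries for the differences by replicate. Unless the replicate block is named, the limma SE and adjusted p come from a fit without a replicate term, which ignores this pairing. The labels treat extraction batches as biological replicates. The genes with values per library were the catalytic subunits, the 5 subunit genes with the smallest p in each direction, Polr3g and Polr3gl. From each list, the called gene with the smallest p in each direction was given by its mean or fold change. The other genes of those lists, the neighbouring genes, the values of Polr1h per library and the ratios were named after their values were seen. The genes, the lists and the alternatives were chosen with earlier results of these data known.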

Additional observations from a re-analysis of the deposited data

How the results depend on the processing

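The counts of calls, the medians by enzyme, and the fold changes of the 32 genes and of 8 list genes were recomputed under 15 alternatives. The ratios, places, counts without overlap, list medians, motif shares and neighbouring genes were not. The fit with the replicate block, which called 458 genes upregulated and 2679 downregulated, changed no call among the 32 genes, nor did a pseudocount of 0.1. Genes called upregulated numbered 321, and 840 with median of ratios scaling, 184 with no filter on low values, 1130 with the replicate block and median of ratios scaling, and 792 with voom on the recovered reads. Genes called downregulated numbered 1954, and 1052 with median of ratios scaling, 1121 with no filter and 1092 with voom. Subunit genes called upregulated numbered 2, and 4 with median of ratios scaling with or without the block and with voom, where Polr1f and Polr2d were added, and 1 with no filter, where Polr3g had an adjusted p of 0.051. Leaving out 1 library gave 59 to 458 upregulated and 332 to 2734 downregulated genes over all genes, and 1 to 2 and 1 to 3 among the 32. Leaving out a replicate pair gave 0 to 659 upregulated and 0 to 3107 downregulated genes, and 0 to 3 in each direction among the 32. Without replicate 1 limma called 0 genes, with 399 higher and 2011 lower at an unadjusted p under 0.05, and without replicate 2 it called 0, with 381 and 1837. These fits rest on 2 libraries against 2. The Pol II median relative to all genes was 0.21, and -0.06 with no filter. No called gene changed direction, and 9 uncalled genes changed sign under median of ratios scaling. The causes of these shifts were not tested.

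Of the list genes, Gtf2a1, Gtf3c1 and Ruvbl2 lost their calls under median of ratios scaling. Taf1d, Ell, Slc7a6os, Gtf2a1 and Gtf3c1 lost theirs without any 1 of 4 libraries, replicate 1 or 2 of either condition (adjusted p of 0.060 to 0.10), and Ruvbl2 without any 1 of 5, all but cold-acclimated replicate 3 (0.061 to 0.13). Depth limits Polr2k and the cold-acclimated values of Polr1has most.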
